A study of Mus musculus with 15 samples.

Results

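Both diets with a higher n-3 to n-6 ratio than the standard diet were set together against that standard diet, across all genes of the array. The members were all 15 of the 15 arrays of the series: 5 of the n-3 enriched diet (ERD, n-3 to n-6 ratio 7:1), 5 of the balanced diet (BLD, 1:1) and 5 of the standard diet (STD, 1:6). The comparison was the mean of the ERD and BLD group means, 10 arrays, minus the STD mean, 5 arrays. It asks which transcripts differ with any rise of the n-3 to n-6 ratio over 1:6. The diet labels give ratios and no amounts, so more n-3 and less n-6 cannot be told apart. Below, n-3 richer means a higher ratio. The animals were male C57BL/6j mice, a common inbred laboratory strain, with no genetic change named in the labels. They received their diet from 3 weeks of age for 24 weeks, and the diets were matched for calories. Total RNA of the left hemibrain was labelled with Cy5 on every array, and a reference pool of RNA from 11 mouse cell lines with Cy3, with no dye swap. Each value below is a log2 ratio of Cy5 over Cy3 (a level), or a difference of such ratios between diets, so a difference of 1 is a doubling. A level is set by the reference as well as by the brain, and no gene's level is compared with another's. The labels name no shared animal or pooling, the word control stands in sample titles of all 3 groups, and groups were taken from the stated diet. Nothing states separate cages or litters, so a cage or litter shared within a diet could not be told apart from the diet. The spread between arrays may also be in part technical. In a hemibrain, fewer cells of a type and less RNA per cell cannot be told apart.

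Long-chain n-3 and n-6 polyunsaturated fatty acids (PUFA) are made from dietary precursors by the same desaturases and elongases, so the diet's ratio sets which family reaches those enzymes. Docosahexaenoic acid (DHA, n-3) and arachidonic acid (n-6) are the main PUFA of brain phospholipids. They act as membrane components, as precursors of eicosanoids and endocannabinoids, and as ligands of nuclear receptors such as the PPAR and RXR families.

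The brain channel was dimmer on some arrays than on others. Between 15997 and 25751 probes were well above background in Cy5 on the ERD arrays, 20367 to 29425 on BLD and 22574 to 26681 on STD. ERD 1 was the dimmest array, and its median correlation with the others was the lowest at 0.88, against up to 0.956 elsewhere. The scans fell on 2 days. The later day held ERD 4, BLD 2, BLD 3 and BLD 4 and no STD array. After a filter on dim probes, 22557 genes were tested, of which 13763 carried a current symbol and 8794 were single probes without one.

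Of these genes, 28 differed between the n-3 richer diets and STD at a Benjamini-Hochberg adjusted p under 0.05 in limma, which is 0.124% of those tested. Higher with the n-3 richer diets were 19 (0.0842%) and lower were 9 (0.0399%). The genes with a symbol and the smallest p were *Raly*, an hnRNP-family protein that binds RNA, 4.36-fold higher, and *Rnf10*, a ubiquitin ligase, 1.66-fold higher. *Cntfr*, the ligand-binding receptor subunit for ciliary neurotrophic factor, was 3.96-fold higher (1.98 on the log2 scale, but 1.24 with an adjusted p of 0.157 from the scanner's processed signals). The lowest p among decreases with a symbol was that of *Trim41*, another ubiquitin ligase, 1.67-fold lower. The called differences ran from 0.42 to 2.46 on the log2 scale in size, and 22 of the 28 genes had a symbol, 17 higher and 5 lower. At an unadjusted p under 0.05, 1889 genes (8.37%) were higher and 1178 (5.22%) lower. All 10 arrays of the richer diets lay above all 5 STD arrays for 86 genes (0.381%), and all 10 lay below them for 36 (0.16%). Of the 28 called genes, 21 were apart in this way and 7 overlapped, a split that their choice by p on these same arrays favours.

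The count of 28 moved widely with single arrays and with batch. Without STD 4 it was 2, without STD 5 it was 3, without STD 3 or BLD 2 it was 4, without ERD 4 it was 7, without BLD 4 it was 9, without STD 2 it was 11 and without STD 1 it was 18. Without BLD 1 it was 53, and without ERD 1 it was 110. With scan day as a term 2 genes were called, and on the earlier day alone, with 6 arrays of the richer diets and 5 of STD, none passed. With slide as a fixed term none passed, and with slide as a random block 50 did. *Raly* and the probe A_55_P2037525 stayed called without any single array, with a highest adjusted p of 0.00185 and 0.014. They were also the genes called with scan day as a term. The other 26 lost their call without at least 1 array, with highest adjusted p values from 0.0856 to 0.152. All 28 kept their sign with any array left out and on each of the 3 slides that held both STD and a richer diet, which their choice on these same arrays largely fixes. The split of calls also moved with the scaling: 15 of 26 were higher from the scanner's processed signals, 4 of 10 with a smaller background offset of 1, 1 of 2 with median centring alone and 17 of 32 from the Cy5 channel alone, against 19 of 28. The genes called were in part others: of the 28, 13 stayed called from processed signals, 17 from Cy5 alone and 6 with the offset of 1.

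**Figure D1:**
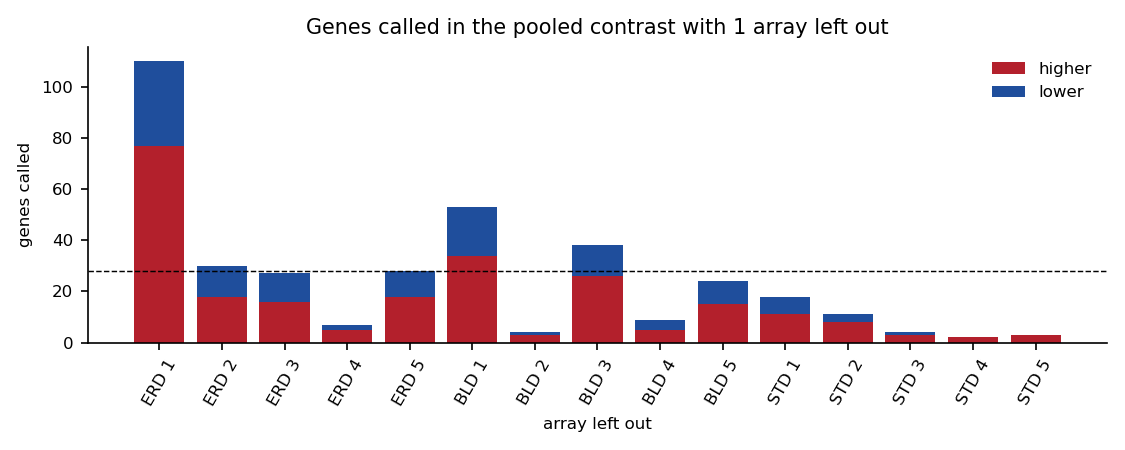
Number of genes called in the pooled contrast (y axis, adjusted p under 0.05, red higher and blue lower with the n-3 richer diets) when the array on the x axis was left out. The dashed line is the count of 28 with all 15 arrays, and the bars run from 2 without STD 4 to 110 without ERD 1.

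Transcripts of 2 RNA-binding proteins of splicing were higher in the pooled comparison. *Raly* (transcript NM_023130) read -0.46, -1.79, -1.76, -1.50 and -1.84 on STD arrays 1 to 5, and from 0.18 to 0.93 (median 0.68) on the 10 arrays of the richer diets. The groups did not overlap, and STD 1 stood apart from the other 4 STD arrays, toward the richer diets. The level was 0.66 ± 0.22 (SD, n = 10) against -1.47 ± 0.58 (SD, n = 5). The difference was 2.13 ± 0.19 (SE), adjusted p = 0.000197 in limma. *Puf60*, a poly(U)-binding splicing factor, read -0.25, -0.04, 0.22, -0.16 and 0.02 on STD and from 0.14 to 1.28 (median 0.51) on the richer diets. Only BLD 1 lay within the STD range, and the difference was 0.73 ± 0.12 (SE), adjusted p = 0.0278. For BLD alone *Puf60* stood at 0.42 with an adjusted p of 0.393. Among 61 measured genes of a list of splicing and RNA-binding proteins, these were the 2 that passed the test. In that list 25 differences were above 0 and 36 below, with a median of -0.08, which turned to 0.02 with median centring. Over all genes 12848 of 22557 (57%) were above 0, the median was 0.03, and 0.124% passed the test. These shares are the background for this list and for those below.

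Among genes of translation and mRNA decay, 3 of 51 on the list passed, and a gene outside it did too. *Eif4g1*, the scaffold of the cap-binding initiation complex, read -0.02, -0.19, -0.13, -0.23 and -0.43 on STD. On the richer diets it ran from -0.07 (BLD 5) to 0.98 (ERD 4), with a median of 0.46, so that BLD 5 overlapped STD. Its difference was 0.69 ± 0.10 (SE), adjusted p = 0.0232. *Eif4ebp3* encodes a small protein that binds the cap-binding factor eIF4E and holds it from the scaffold. It read -0.88, -0.61, -0.80, -0.65 and -1.01 on STD and from -0.42 to -0.09 (median -0.25) on the richer diets, without overlap. Its difference was 0.53 ± 0.09 (SE), adjusted p = 0.0278. *Lsm14b*, an RNA-binding protein of the family found in cytoplasmic mRNP granules, read 1.17, 0.56, 1.00, 0.58 and 0.69 on STD and from 1.39 to 2.40 (median 1.84) on the richer diets. Every richer-diet array was above every STD array, with a difference of 1.07 ± 0.16 (SE), adjusted p = 0.0209. Another *Lsm14b* probe, dimmer and not used for the gene, gave -0.14 (unadjusted p = 0.259). *Cnot6l*, a catalytic subunit of the CCR4-NOT deadenylase, which shortens mRNA tails, read -1.29, -1.31, -1.56, -1.46 and -1.01 on STD and from -2.42 to -1.75 (median -1.95) on the richer diets. The groups were apart, and the transcript fell by 0.67 on the log2 scale, SE 0.11, adjusted p = 0.0278. A dimmer *Cnot6l* probe gave -0.09 (unadjusted p = 0.622). The list as a whole had 31 differences above 0 and 20 below, with a median of 0.04, which ran from -0.05 to 0.13 under 5 other scalings.

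The next 4 called genes act in the ubiquitin system and were grouped after their values were seen, with no list of such genes behind them. *Rnf10*, a RING-type ligase also described as a messenger between synapse and nucleus, read 0.27, 0.69, 0.65, 0.31 and 0.70 on STD. It read from 1.13 to 1.48 (median 1.23) on the richer diets. Its spread there was narrow, 1.26 ± 0.12 (SD, n = 10), the groups did not meet, and the difference was 0.73 ± 0.10 (SE), adjusted p = 0.0121. *Ube4a*, which extends ubiquitin chains, read 0.11, 0.31, 0.12, 0.26 and -0.20 on STD and from 0.44 to 1.27 (median 0.92) on the richer diets, again apart. Its difference was 0.77 ± 0.13 (SE), adjusted p = 0.0278. *Trim41*, a TRIM-family ligase, was the reverse: 0.01, -0.06, 0.27, 0.18 and 0.65 on STD, and from -0.77 to -0.31 (median -0.53) on the richer diets. All 10 arrays were below all 5, and it fell by 0.74 on the log2 scale, SE 0.12, adjusted p = 0.0278. *Klhl9*, a substrate adaptor of cullin-based ligases, read 0.76, 0.67, 1.14, 0.43 and 0.90 on STD and from -0.81 to 0.53 (median 0.02) on the richer diets. BLD 3 lay within the STD range, and the transcript fell by 0.89 on the log2 scale, SE 0.16, adjusted p = 0.0344.

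A receptor, a small GTPase and a subunit of a signalling complex were among the higher genes. *Cntfr* read 1.91, 2.03, 1.35, 1.24 and 0.85 on STD and from 2.41 (ERD 1) to 4.35 (ERD 2), median 3.56, on the richer diets. The groups did not overlap although the arrays of the richer diets were spread by 0.67 (SD, n = 10), and the difference was 1.98 ± 0.31 (SE), adjusted p = 0.0278. Of the 21 measured genes of the neurotrophin and CNTF family list, *Cntfr* alone passed the test, and 12 differences were above 0 and 9 below (median 0.04, below 0 under 3 of 5 other scalings). *Rhog*, a small GTPase that acts on the cytoskeleton, read -0.55, -0.36, -0.76, -0.40 and -0.67 on STD and from -0.11 to 0.57 (median 0.27) on the richer diets. It was apart, with a difference of 0.79 ± 0.13 (SE), adjusted p = 0.0278. *Lamtor4*, a subunit of the lysosomal Ragulator complex that anchors mTOR signalling, read 0.77, 0.71, 0.63, 0.60 and 0.35 on STD and from 0.99 to 1.52 (median 1.18) on the richer diets. Its groups were apart too, with a difference of means of 0.61 ± 0.10 (SE), adjusted p = 0.03.

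**Figure D2:**
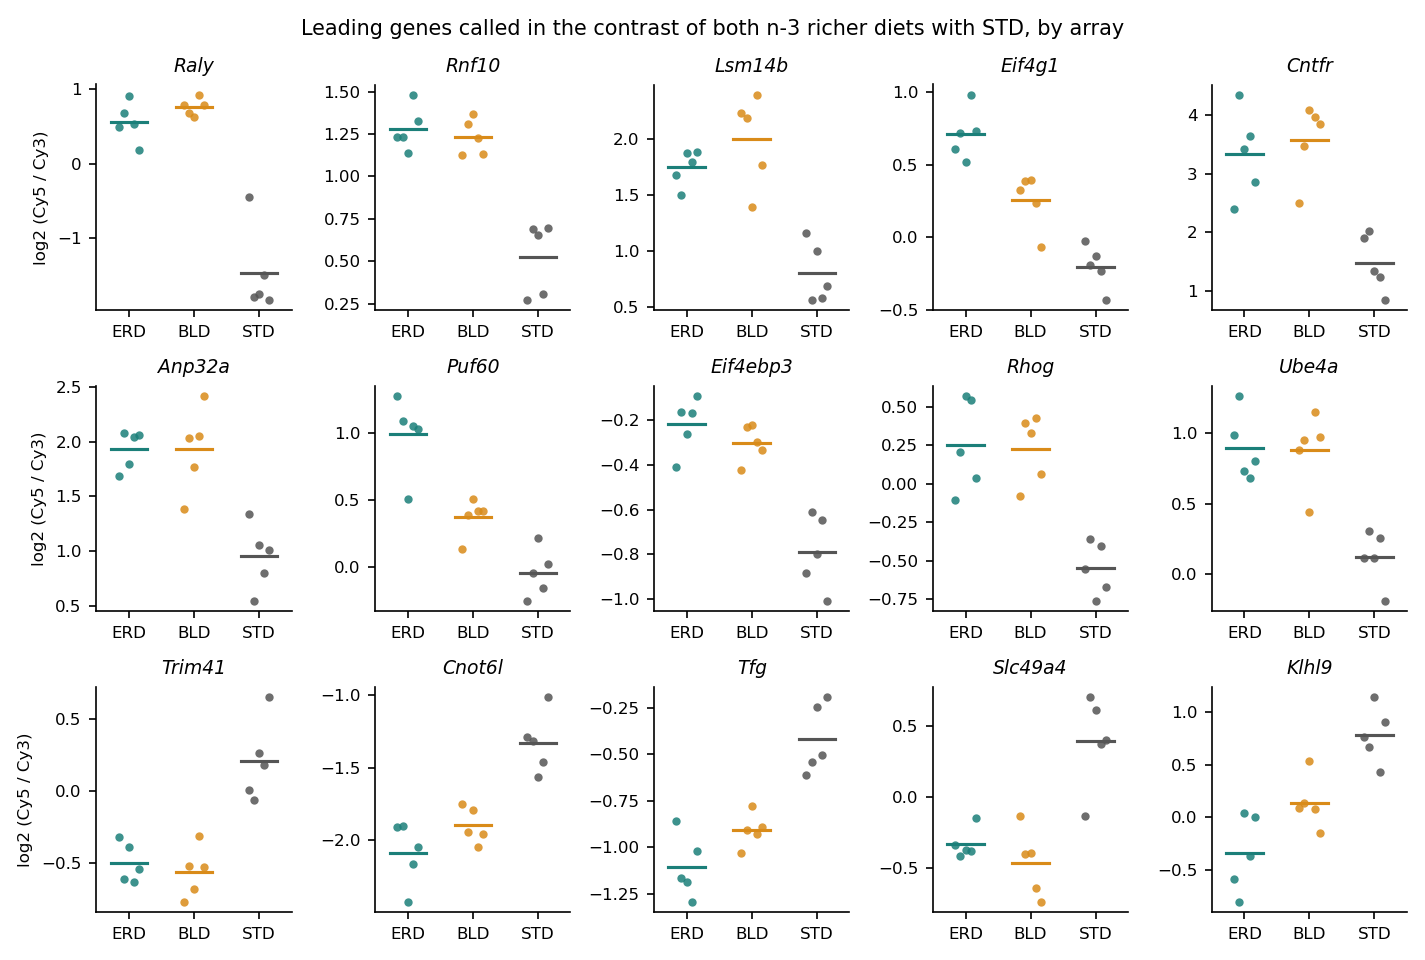
Log2 ratio of hemibrain Cy5 over reference Cy3 (y axis, scaled per gene) on each array of ERD, BLD and STD, 5 points a diet with the mean as a line, for the 10 called increases of lowest p and all 5 called decreases with a symbol. *Raly* read from 0.18 to 0.93 on the richer diets and from -1.84 to -0.46 on STD, and *Trim41* from -0.77 to -0.31 against -0.06 to 0.65.

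The next 4 genes encode proteins of chromatin, arginine methylation or DNA replication, and they too were grouped after their values were seen. *Anp32a*, an acidic nuclear protein that chaperones histones and inhibits a protein phosphatase, read 1.34, 0.54, 1.06, 0.80 and 1.01 on STD and from 1.39 to 2.42 (median 2.04) on the richer diets. BLD 1 and STD 1 nearly met, and the difference was 0.98 ± 0.16 (SE), adjusted p = 0.0278. A dimmer *Anp32a* probe showed -0.0025 (unadjusted p = 0.988). *Kdm2a*, a histone lysine demethylase that binds unmethylated CpG DNA, read 0.10, -0.38, -0.15, -0.57 and -0.48 on STD and from 0.15 to 0.63 on the richer diets. Its difference was 0.67 ± 0.12 (SE), adjusted p = 0.03, and its dimmer probe gave 0.12 (unadjusted p = 0.412). *Kdm2a* was the called member among 59 measured genes of DNA methylation, one-carbon metabolism and histone modification, of which 33 were above 0 and 26 below (median 0.02, below 0 under 3 of 5 other scalings). *Prmt5*, an arginine methyltransferase of histones and spliceosome proteins, ran from -0.80 to -0.32 on STD and from -0.40 (ERD 1) to 0.15 on the richer diets. ERD 1 lay within the STD range, with a difference of 0.58 ± 0.10 (SE), adjusted p = 0.03. *Gins4*, a subunit of the replicative helicase, falls outside the rule for named genes and was chosen after its values were seen. It ran from -1.73 to -1.50 on STD and from -1.28 to -0.94 on the richer diets, a difference of 0.43 ± 0.08 (SE), adjusted p = 0.045, and 0.27 (adjusted p = 0.23) from Cy5 alone.

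In the list of antigen presentation and interferon genes 2 of 29 measured members passed the test, both higher. *Tapbp* encodes tapasin, which loads peptides onto MHC class I in the endoplasmic reticulum. It had the smallest called difference and little spread: -2.02, -2.05, -2.05, -1.92 and -2.01 on STD against -1.68 to -1.45 (median -1.60) on the richer diets. The groups were apart, with a difference of means of 0.42 ± 0.07 (SE), adjusted p = 0.03. The difference was 0.63 with A quantile and M scale between arrays. *Lgals3bp*, a secreted interferon-inducible glycoprotein that binds galectin, read -1.57, -1.48, -1.77, -1.44 and -1.57 on STD and from -1.30 to -0.86 (median -1.01) on the richer diets. It was apart as well, with a difference of means of 0.53 ± 0.09 (SE), adjusted p = 0.03, and its dimmer probe gave 0.45 (unadjusted p = 0.0443). From Cy5 alone *Lgals3bp* stood at 0.34, adjusted p = 0.276. In the list 24 differences were above 0 and 5 below, where 57% were above 0 over all genes. The list's median was 0.11 against 0.03 over all genes. That median stayed above 0 under 5 other scalings, from 0.0082 from the Cy5 channel alone to 0.29. The next members by p were *Bst2* at 0.43 (adjusted p = 0.19) and the immunoproteasome subunit *Psmb8* at 0.41 (adjusted p = 0.25).

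Genes of organelles and vesicle traffic completed the called genes with a symbol. *Cep250*, which holds the centrioles of a centrosome together, ran from -0.75 to 0.02 on STD and from 0.20 to 0.95 on the richer diets. These groups were apart, with a difference of means of 0.76 ± 0.13 (SE), adjusted p = 0.03. *Tfg*, a protein of endoplasmic reticulum exit sites, read -0.61, -0.54, -0.24, -0.50 and -0.19 on STD and from -1.30 to -0.78 (median -0.98) on the richer diets. It was apart and fell by 0.59 on the log2 scale, SE 0.10, adjusted p = 0.0278. *Slc49a4*, a transporter of the lysosomal membrane, read -0.14, 0.70, 0.61, 0.37 and 0.40 on STD and from -0.74 to -0.13 on the richer diets. STD 1 touched the richer-diet range, the probe was well above background on 4 of 5 ERD arrays, and the transcript fell by 0.79 on the log2 scale, SE 0.13, adjusted p = 0.0278. From processed signals *Slc49a4* stood at -1.63, adjusted p = 0.0629.

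The 6 called features without a current symbol are given by the array's own probe and target names. A_55_P2037525 (XM_003086706) had the smallest p after *Raly*. It read -0.37, -0.03, -0.57, -0.11 and -0.45 on STD and from 0.53 to 1.099 (median 0.62) on the richer diets, a difference of 1.00 ± 0.11 (SE), adjusted p = 0.00185. A_66_P101646 (ENSMUST00000082402) had the largest difference in size. It read 0.07, 2.09, 1.91, 1.92 and 1.80 on STD and from -2.01 to 0.08 (median -0.80) on the richer diets, so STD 1 fell inside the range of the richer diets. It fell by 2.46 on the log2 scale, SE 0.34, adjusted p = 0.0125. Its normalized Cy3 value differed by 0.66 the other way, the largest Cy3 difference of the called genes. Cy3 values here were taken after loess and A quantile normalization, which use both channels, so they are not the reference on its own. From the Cy5 channel alone the difference was -1.84. A_55_P2185160 was higher by 0.83 ± 0.14 (SE). Both A_55_P2146555 (ENSMUST00000042261) and A_51_P389506 (BC012231) were lower, with differences of -0.69 ± 0.10 (SE) and -0.52 ± 0.09 (SE). A_30_P01033314 targets the interval chr13:70745633-70776516 of mm9 and was lower, with a difference of -0.71 ± 0.12 (SE), and of -2.25 from processed signals. It was well above background on 3 ERD, 3 BLD and 5 STD arrays, and STD 1 overlapped the richer diets. Over all genes the normalized Cy3 value gave no called gene in limma. Before adjustment 1900 genes had p under 0.05, and 3 of the 28 called genes were among these.

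The list of named decreases was filled by p with 7 genes that did not pass the test. *Tmem59*, a Golgi protein that affects the processing of the amyloid precursor, read 0.57, 0.46, 0.62, 0.59 and 0.20 on STD and from -0.86 to 0.20 on the richer diets, a difference of -0.71 ± 0.13 (SE), adjusted p = 0.0505. BLD 4 reached the lowest STD array, and another bright *Tmem59* probe gave -0.28 (unadjusted p = 0.0897). *Creg2*, a secreted glycoprotein of brain, stood at -1.33 ± 0.25 (SE), adjusted p = 0.0536, with 9 of 10 arrays below all STD arrays. *Nsg2*, a neuronal endosomal protein, stood at -0.97 ± 0.20 (SE) and *Pgbd5*, a transposase-derived gene of brain, at -0.70 ± 0.14 (SE), both with an adjusted p of 0.0662 and with all 10 arrays below STD. The normalized Cy3 value differed by 0.53 the other way for *Nsg2*, and Cy5 alone gave -0.46 (adjusted p = 0.206). *Pde5a*, a cyclic GMP phosphodiesterase, stood at -1.10 ± 0.21 (SE), but STD 1 read -0.77 against 0.43 to 0.66 on the other STD arrays, and from processed signals *Pde5a* stood at -2.58 (adjusted p = 0.0381). The histone methyltransferase *Nsd2* and the receptor phosphatase *Ptprg* stood at -0.71 and -0.58, and their other probes lay between -0.13 and 0.08.

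The stretch before the start site is shown for the leading called gene with a symbol, the next increase by p and the leading decrease, since these lead each direction. The 250 bases come from RefSeq on GRCm38.p6, 5' to 3' on the gene's strand. Capitals mark matches, on either strand, to 5 short motifs. The half-site bound by nuclear receptors was searched as AGGTCA. The E-box, bound by basic helix-loop-helix factors, was searched as CACGTG. The GC box, bound by SP-family factors, was searched as GGGCGG. The CCAAT box is written out in its name, and the cyclic AMP response element was searched as TGACGTCA. No motif searched lies within another.
Raly (chr2:154790860-154791109, plus strand): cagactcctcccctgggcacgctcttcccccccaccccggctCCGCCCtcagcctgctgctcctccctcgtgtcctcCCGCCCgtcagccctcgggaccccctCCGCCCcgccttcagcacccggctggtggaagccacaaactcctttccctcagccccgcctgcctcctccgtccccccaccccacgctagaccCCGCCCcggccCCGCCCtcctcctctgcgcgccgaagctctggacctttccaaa
Rnf10 (chr5:115272896-115273145, minus strand): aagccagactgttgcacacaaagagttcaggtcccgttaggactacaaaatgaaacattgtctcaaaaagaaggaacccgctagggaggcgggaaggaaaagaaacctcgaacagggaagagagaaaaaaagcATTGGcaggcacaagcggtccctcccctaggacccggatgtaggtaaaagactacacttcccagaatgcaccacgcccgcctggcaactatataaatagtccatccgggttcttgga
Trim41 (chr11:48817392-48817641, minus strand): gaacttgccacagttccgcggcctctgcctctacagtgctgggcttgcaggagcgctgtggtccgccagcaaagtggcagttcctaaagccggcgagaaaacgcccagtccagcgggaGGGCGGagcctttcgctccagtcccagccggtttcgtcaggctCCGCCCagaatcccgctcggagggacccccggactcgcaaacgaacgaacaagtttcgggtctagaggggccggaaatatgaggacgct
The *Raly* stretch held 5 GC box matches, that of *Trim41* 2 and that of *Rnf10* a single CCAAT box match. A window was found for 18 of the 22 called genes with a symbol, 13 higher and 5 lower. A GC box match stood before 9 of the 13 and 5 of the 5, and in 32.7% of all 32851 windows of the table. A CCAAT match stood before 7 of the 13 and 1 of the 5, against 33.8% of windows. A half-site match stood before *Rhog* and *Slc49a4* (14% of windows) and an E-box match before *Eif4g1*, *Lamtor4* and *Slc49a4* (6.02%). No window of these genes held the cyclic AMP element, present in 1.55% of windows. *Cntfr* and *Cnot6l* have several start sites and windows, any of which could hold a match, so their counts are not like for like. The shares of windows cover every window of the table, whether or not its gene was tested here. The share among tested genes was not counted, so no excess is read from these matches.

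Set side by side, both richer diets lay on the same side of STD for all 28 genes. The 2 comparisons share the STD arrays, and the choice by their mean favours such agreement. *Raly* was higher by 2.02 with ERD (adjusted p = 0.0027) and by 2.23 with BLD (adjusted p = 0.00075). *Cntfr* was higher by 1.86 (adjusted p = 0.0478) and 2.10 (adjusted p = 0.0782). *Trim41* stood at -0.71 (adjusted p = 0.0478) with ERD and -0.77 (adjusted p = 0.0886) with BLD. Taken alone, ERD minus STD gave 49 called genes (0.217%), and BLD minus STD gave 2 (0.00887%), *Raly* and A_55_P2037525. The direct test of ERD against BLD, which does not use the STD arrays' level, called no gene in limma (0%), while 2343 (10.4%) had p under 0.05 before adjustment.

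**Figure D3:**
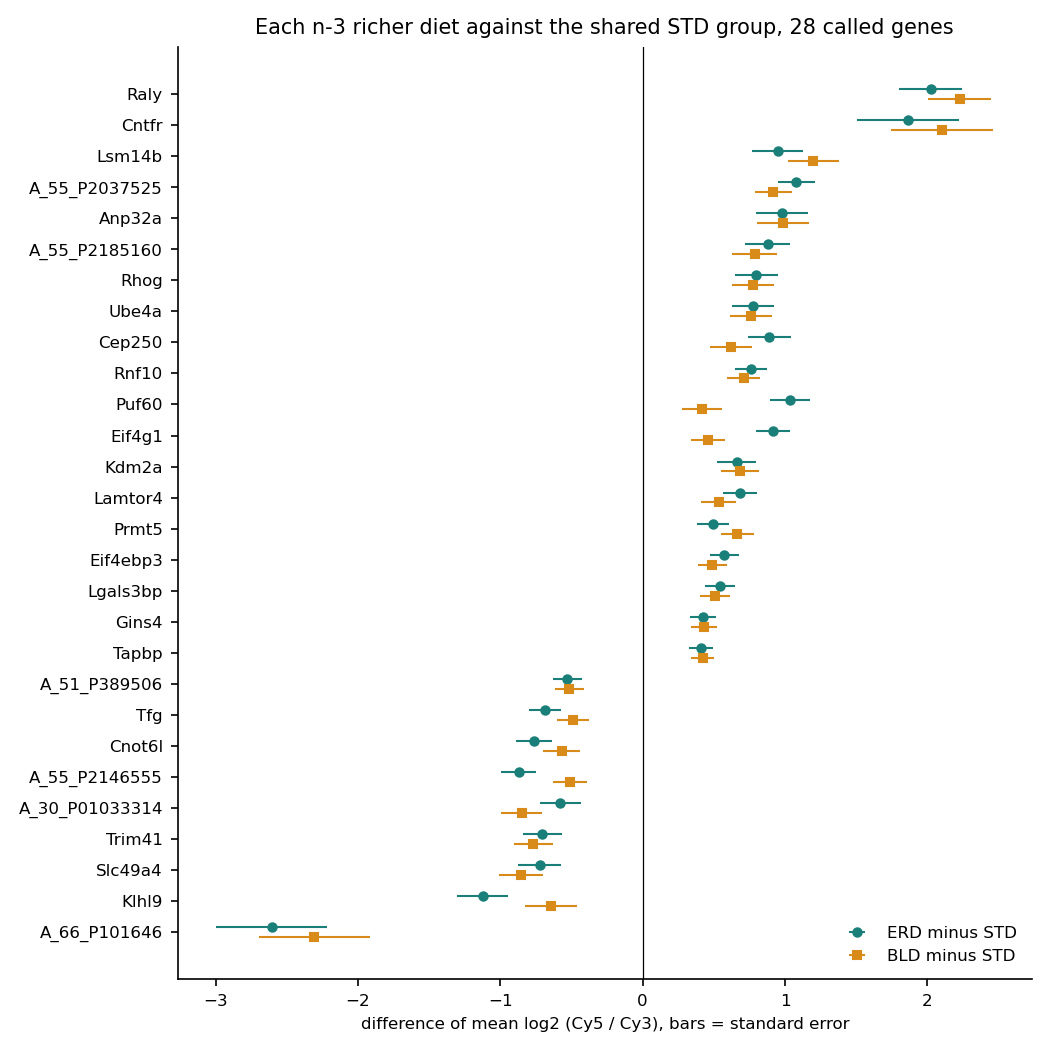
Difference from STD in mean log2 ratio (x axis, bars are standard errors from limma) for the 28 called genes, by diet: ERD minus STD as circles and BLD minus STD as squares. Both differ from the same 5 STD arrays; *Puf60* stands at 1.03 and 0.42, *Anp32a* at 0.98 in both.

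Between the richer diets, 4 of the 28 called genes had an unadjusted p under 0.05, of which the background is 10.4%. *Puf60* was 0.62 ± 0.14 (SE) higher with ERD than with BLD (unadjusted p = 0.000412, adjusted p = 0.247). ERD 3 and the BLD arrays lay at 0.51 or below, and the other ERD arrays from 1.03 to 1.28. *Eif4g1* was 0.46 ± 0.12 (SE) higher with ERD (adjusted p = 0.303), and every ERD array was above every BLD array. *Klhl9* and A_55_P2146555 were lower with ERD, with differences of -0.48 ± 0.18 (SE) and -0.36 ± 0.12 (SE), at adjusted p of 0.426 and 0.389. None of these 4 passed the test of ERD against BLD. For *Rnf10* the same difference was 0.05 ± 0.11 (SE), for *Anp32a* -0.0025 ± 0.18 (SE) and for *Rhog* 0.02 ± 0.15 (SE).

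Of the 36 gene lists, 13 kept the sign of their median under all 5 other scalings: those of PUFA synthesis, fatty acid oxidation, the endocannabinoid system, glutamate receptors, ion channels, immediate early genes, the respiratory chain, interferon response, and neuronal, striatal, hippocampal, olfactory and astrocyte markers. The other 23 changed sign under at least 1 scaling, with medians from -0.11 to 0.16 as first given, and no direction is drawn for them. Of the 13, PUFA synthesis, interferon response, neuronal and astrocyte medians also kept their sign on each of the 3 slides with STD and a richer diet. The rest changed sign on at least 1 of these slides, such as to 0.14 for the endocannabinoid system and 0.17 for olfactory markers. No direction is drawn for these either.

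The list of long-chain PUFA synthesis held the desaturases and elongases shared by n-3 and n-6 precursors, other enzymes of elongation, delta-9 desaturases and a thioesterase. It showed no called gene among 19 measured of 20 listed. Their differences were above 0 for 7 and below for 12, with a median of -0.13 against 0.03 over all genes. Before adjustment 3 had p under 0.05, all lower. These were *Hacd1* (-0.31, adjusted p = 0.289), *Scd2* (-0.31, adjusted p = 0.33) and *Elovl4* (-0.69, adjusted p = 0.35). *Fads1*, the delta-5 desaturase, read -1.59, -0.77, -1.14, -1.28 and -0.49 on STD and from -2.24 to -0.53 on the richer diets. The groups overlapped, the difference was -0.23 ± 0.20 (SE), and the diets behind the mean were unlike, -0.63 for ERD and 0.18 for BLD. The delta-6 desaturase *Fads2* was near background (1 ERD, 2 BLD and 5 STD arrays above it) and stood at -0.07 ± 0.09 (SE). The elongases *Elovl2* and *Elovl5* stood at -0.26 ± 0.26 (SE) and 0.04 ± 0.09 (SE). *Mfsd2a*, the carrier of DHA across the blood-brain barrier, stood at 0.27 ± 0.18 (SE), and *Bdnf*, the neurotrophin, at -0.08 ± 0.10 (SE). In each of these 6 genes the groups overlapped, and the lowest adjusted p was 0.526.

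**Figure D4:**
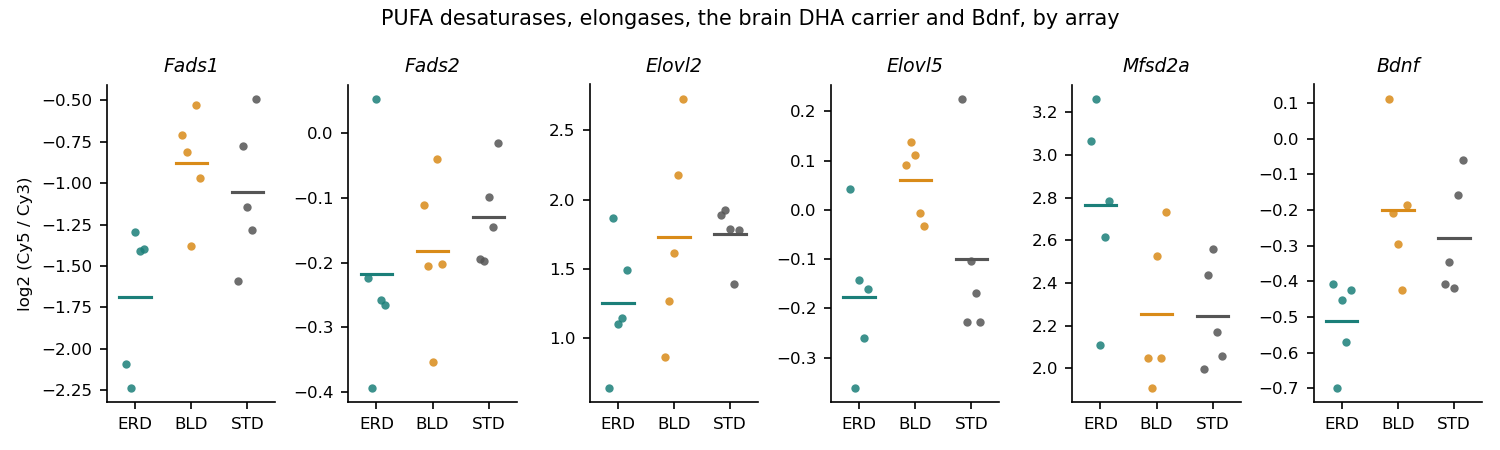
Log2 ratio of Cy5 over Cy3 (y axis, scaled per gene) on each array of ERD, BLD and STD for the desaturases *Fads1* and *Fads2*, the elongases *Elovl2* and *Elovl5*, the DHA carrier *Mfsd2a* and *Bdnf*, 5 points a diet with the mean as a line. The points of the richer diets overlap STD in all 6 genes, and the mean of *Fads1* is -1.69 ± 0.44 (SD) on ERD and -0.88 ± 0.32 (SD) on BLD.

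Other lipid lists also held no called gene. Over all genes 57% of differences were above 0, the background for the counts here and in the lists below. Counts near that share give no direction. Fatty acid oxidation, PPAR targets and lipid droplets had 25 of 34 differences above 0 (median 0.10). *Hadha*, of mitochondrial beta-oxidation, read -0.84, -0.94, -1.05, -0.83 and -1.07 on STD and from -0.64 to -0.35 on the richer diets. These groups did not overlap, yet the difference of 0.42 ± 0.08 (SE) had an adjusted p of 0.0601. *Angptl4*, a PPAR target that inhibits lipoprotein lipase, stood at 0.69 ± 0.17 (SE), adjusted p = 0.117, with 9 of 10 arrays above all STD arrays. Cholesterol genes had 24 of 36 above 0 (median 0.06), led by the sterol-sensing receptor *Nr1h3* at 0.39 and the synthetic enzyme *Mvd* at 0.44, adjusted p = 0.136 and 0.156. Fatty acid transport and activation had 13 of 23 above 0 (median 0.01). There, the acyltransferases *Agpat4* and *Agpat3* stood at -0.40 and -0.31. Phospholipases A2 and eicosanoid enzymes had 15 of 26 above 0 (median 0.03), with *Pla2g6* at 0.35 and *Cbr1* at 0.31. The endocannabinoid system had 12 of 15 below 0 and a median of -0.20, which was -0.42 for ERD and 0.03 for BLD. *Dagla*, which makes the endocannabinoid 2-arachidonoylglycerol, stood at -0.43 (adjusted p = 0.255) and *Abhd4* at -0.36 (adjusted p = 0.276).

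**Figure D5:**
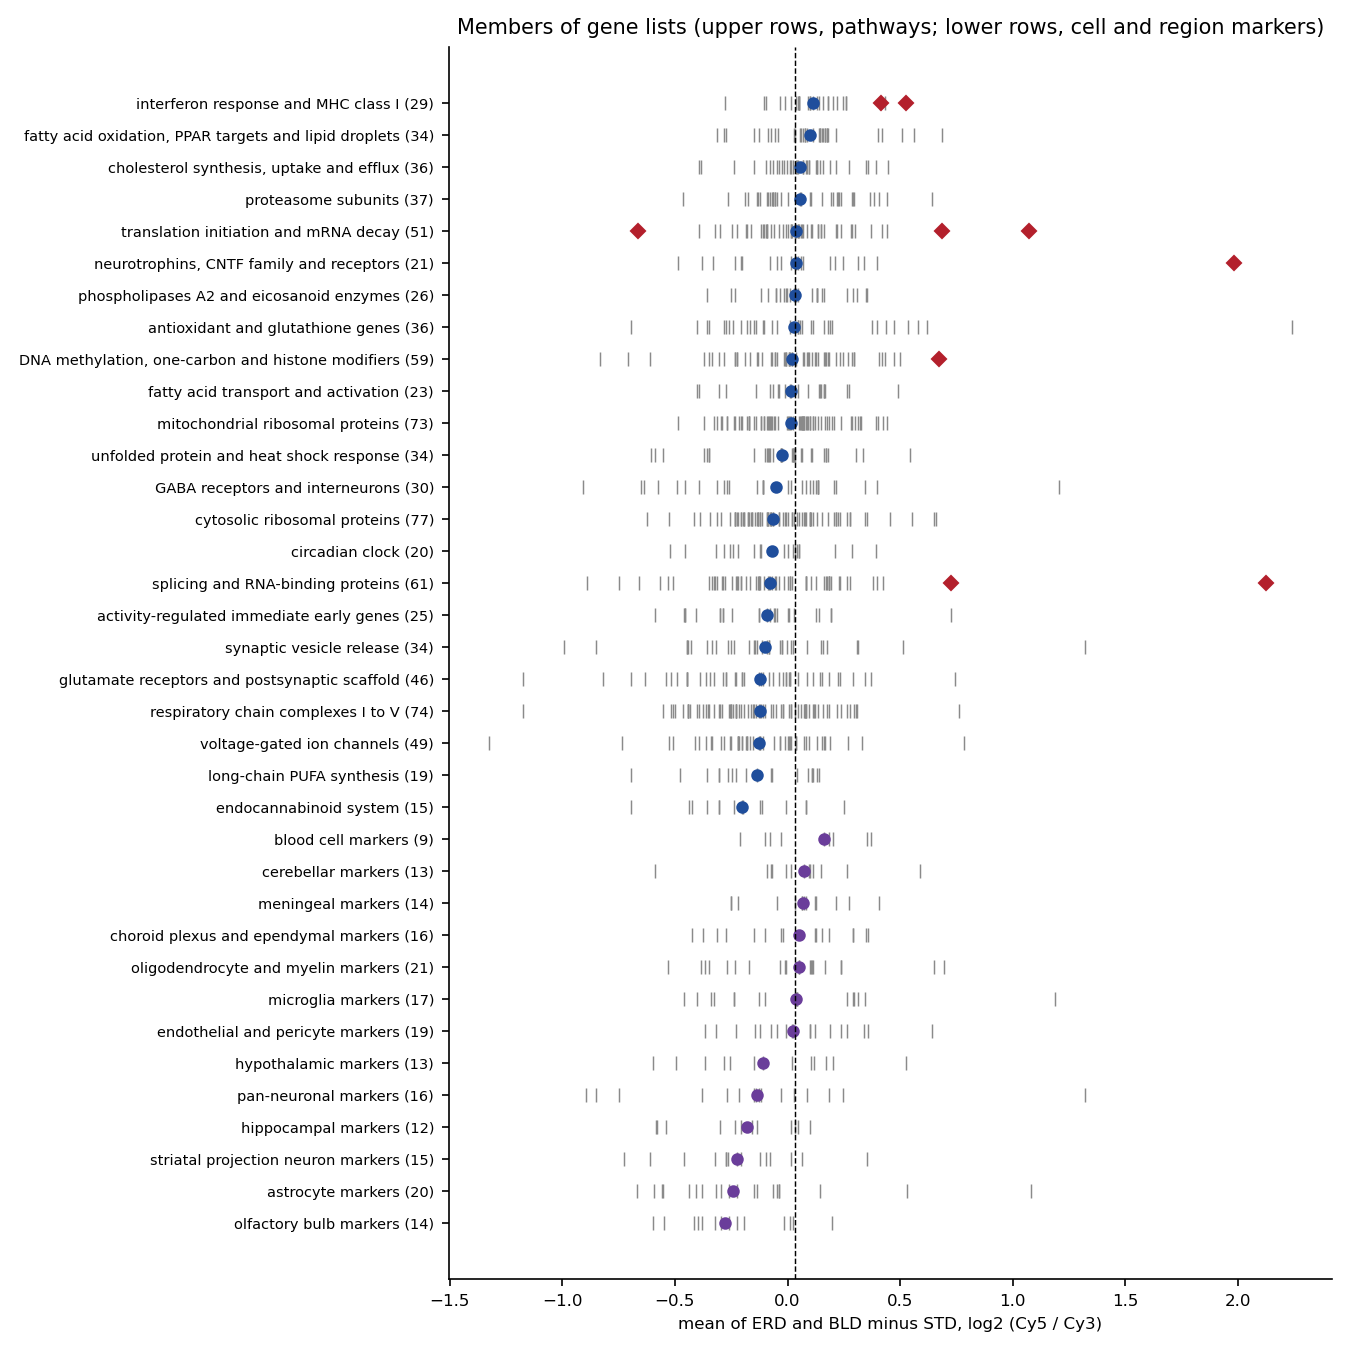
Mean of ERD and BLD minus STD in log2 ratio (x axis) for the measured members of each gene list (rows, number measured in brackets): ticks are members, red diamonds called members, and dots list medians (blue pathways, purple cell and region markers). The dashed line is the median over all genes, 0.03; the 9 called genes on a list lie in 5 of the 36 lists, and the others hold none.

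In the synaptic lists no gene was called. Their pooled medians were below 0, and the diets behind them were unlike. Glutamate receptors and scaffolds had 31 of 46 below 0 (median -0.12), vesicle release 24 of 34 (median -0.10), ion channels 32 of 49 (median -0.13) and GABA genes 15 of 30 (median -0.05). For ERD alone these medians were -0.31, -0.15, -0.23 and -0.22, and for BLD alone 0.06, 0.0014, 0.08 and 0.10. From the Cy5 channel alone the medians of the vesicle and GABA lists were above 0, and with median centring that of the GABA list was too. ERD 1, the dimmest array, gave the lowest mean of each of these 4 lists. For the glutamate list the mean shift from STD ran from -0.98 on ERD 1 to 0.31 on BLD 4, and from -0.12 to 0.21 among STD arrays, and the part of array brightness was not tested. The NMDA subunit *Grin2a* stood at -0.82 ± 0.29 (SE), adjusted p = 0.273. *Slc32a1*, the vesicular GABA transporter, stood at -0.65 ± 0.22 (SE), adjusted p = 0.255. *Snap25*, of the vesicle fusion machinery, went the other way at 1.32 ± 0.46 (SE), adjusted p = 0.274. It read between 1.69 and 2.52 on STD and from 2.38 to 5.43 on the richer diets, with an SD of 1.08 among the latter. The probe of the potassium channel *Kcnc1* stood at -1.33, adjusted p = 0.236, which was -2.08 for ERD and -0.57 for BLD. Immediate early genes had 17 of 25 below 0 (median -0.09), clock genes 11 of 20 (median -0.07, but above 0 with median centring), and within them *Jund* stood at 0.73 and *Tef* at -0.52 (adjusted p = 0.243 and 0.132).

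Mitochondria and protein handling lists were without a called gene too. Respiratory chain subunits had 47 of 74 below 0 (median -0.12). That list held only subunits encoded in the nucleus, and called features without a symbol were placed on no list. *Uqcrc1* of complex III, however, at 0.76 ± 0.14 (SE), lay above STD on all 10 arrays with an adjusted p of 0.0509. Cytosolic ribosomal proteins had 45 of 77 below 0 (median -0.06), and mitochondrial ones 40 of 73 above (median 0.01). The cytosolic median turned above 0 with median centring and with A quantile and M scale between arrays. *Rps15* stood at 0.66 (adjusted p = 0.0823) and *Mrpl38* at 0.44 (adjusted p = 0.0607). Proteasome subunits had 20 of 37 above 0 (median 0.05), and the interferon-inducible activator *Psme1* stood at 0.39 with all 10 arrays above STD (adjusted p = 0.0838). Antioxidant genes had 19 of 36 above 0 (median 0.03), with *Prdx5* at 0.58 and *Gstm5* at 0.62 (adjusted p = 0.0662 and 0.111). Heat shock and unfolded protein genes had 18 of 34 below 0 (median -0.03), with *Hspb1* at -0.61 and *Xbp1* at -0.59 (adjusted p = 0.148 and 0.242).

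Markers of brain cells and regions checked the tissue, and none of them was called. Markers of neurons, astrocytes, oligodendrocytes and microglia were measured in 16 of 16, 20 of 20, 21 of 22 and 17 of 18 cases, and blood cell markers in 9 of 16. Astrocyte markers had 17 of 20 differences below 0 (median -0.24), with list means per array from -0.46 (ERD 1) to 0.05 on the richer diets and from -0.11 to 0.12 on STD. *Gfap*, the astrocyte filament protein, was among the 3 above 0, at 1.08 ± 0.23 (SE), adjusted p = 0.0838, with 9 of 10 arrays above all STD arrays. From processed signals *Gfap* stood at 0.28, adjusted p = 0.49. *Aldoc*, a glycolytic enzyme of astrocytes, stood at -0.67 ± 0.15 (SE), adjusted p = 0.0838, with all 10 below. Pan-neuronal markers had 11 of 16 below 0 (median -0.135), striatal ones 12 of 15 (median -0.225) and olfactory bulb ones 11 of 14 (median -0.28). Hippocampal ones had 8 of 12 below 0 (median -0.18) and hypothalamic ones 7 of 13 (median -0.11). These lists also varied between arrays. Pan-neuronal means ran from -0.68 (ERD 1) to 0.28 (BLD 1) on the richer diets, against -0.17 to 0.17 on STD. Striatal means ran from -0.54 (ERD 1) to 0.25 (ERD 2), against -0.09 to 0.12. Olfactory means ran from -0.61 (ERD 3) to 0.34 (ERD 2), against -0.16 to 0.21. Hippocampal means ran from -0.64 (ERD 1) to 0.08 (BLD 5), against -0.07 to 0.18. The hypothalamic median turned above 0 with median centring and from Cy5 alone. The remaining lists, whose medians each changed sign under at least 1 other scaling, stood at these values: oligodendrocytes and myelin 0.05, microglia 0.04, endothelium and pericytes 0.02, choroid plexus 0.05, meninges 0.07, cerebellum 0.07 and blood 0.16. The share of these cells in each hemibrain was not measured, and their part in the called differences was not tested. Single markers with low p included the oligodendrocyte precursor proteoglycan *Cspg4* at 0.70, the myelin glycoprotein *Mag* at -0.53, the endothelial surface protein *Ly6a* at 0.64 and the striatal opioid precursor *Penk* at -0.61. Their adjusted p values were 0.0662, 0.0963, 0.105 and 0.14. They were picked by p from lists with members on both sides of 0. The oligodendrocyte and myelin list had 11 differences above 0 and 10 below, and the endothelial and pericyte list 11 above and 8 below. For *Penk* the normalized Cy3 value differed by 0.50 the other way (unadjusted p = 0.00641 in limma), and Cy5 alone gave -0.11. From Cy5 alone *Mag* stood at -0.25 and *Cspg4* at 0.44.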

How the data were processed

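Spot intensities deposited by the authors are median pixel intensities of spot and local background in each channel, per the file headers, together with background-subtracted, dye-normalized processed intensities. The authors' value table holds log10 of Cy5 over Cy3, which matched the scanner's own log10 ratios to within 5e-10 and had a median of 0 on each array. Per the file headers the scanner software was Feature Extraction 11.5.1.1, while the submitters' processing notes name version 10.7.

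Here, median intensities were background-corrected (normexp, offset 50) and loess-normalized within arrays in limma 3.58.1 (R 4.3.3), giving log2 ratios from the deposited intensities. Outlier spots (0.574%) were left out, spots of a probe averaged, and probes kept with at least 8 values and a Cy5 signal well above background on 5 or more arrays: 26348 of 55681 passed the background filter. Probes were named through their transcript accession (RefSeq genes, GRCm38.p6; 27656 matched). The array headers name the older build mm9, so no gene coordinates are given beside values. The brightest probe stood for a gene. A linear model with 3 group means (12 residual degrees of freedom), empirical Bayes and Benjamini-Hochberg adjustment over all 22557 genes gave each contrast. The number of arrays limits precision.

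The members and lists were chosen with earlier results of these data known. Named were the 15 largest called increases, the called decreases filled to 12 by p, up to 4 called or 2 lowest-p members of each list, 5 called genes of lowest p between ERD and BLD, and 6 fixed genes; called features outside this rule are named as such. A gene that the rule names is not reported here. Alternatives covered background, scaling, filters, probe summary, slide, scan day, array weights and each array left out. The fit was tested on simulated data. Promoter matches are a description. Figures were drawn with matplotlib 3.10.9.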

Additional observations from a re-analysis of the deposited data

Results flagged for a closer look

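Among 306 groups of 5 arrays, 23 held an array far from the other 4 of its diet, where chance alone gives about 1 in 20 groups. Among called genes, STD 1 read -0.46 for *Raly*, against -1.50 on the nearest STD array, 0.069 for A_66_P101646 (nearest 1.80) and -0.29 for A_30_P01033314 (nearest 0.17). On the remaining called genes, STD 4 read -1.92 for *Tapbp*, ERD 5 read -0.15 for *Slc49a4* and ERD 2 read -0.66 for A_55_P2146555.

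The others concerned genes that did not pass the test. On ERD 1 these were *Cox6a1* at 1.97, *Cspg4* at 0.22, *Ctss* at 0.10 and *Ly6a* at -1.67, and ERD 1 was the dimmest array. On ERD 2 they were *Creg2* at 1.93, *Nr1h3* at 0.92 and *Th* at 3.19. ERD 3 read -0.088 for *Abhd4*, and ERD 5 read -0.83 for *Mrpl54*. BLD 1 read -0.0248 for *Rps15* and 4.27 for *Pde1b*, and BLD 3 read 1.27 for *Grin2a* and -3.15 for *Jun*. On STD 1 *Pde5a* stood at -0.77 and *Elovl5* at 0.23. STD 4 read 1.39 for *Elovl2*, and STD 5 read 2.90 for *Slc6a13*.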

How the results depend on the processing

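No paired analysis was possible because the labels tie no array to one of another diet. The sample titles carry a different number for each array, but the labels do not say whether each array holds 1 animal. Arrays are numbered within a diet by name only, and slide was tried as a block instead. The 28 called genes kept their sign in every setting that gave them a value, but the count moved. With each array left out it ran from 2 to 110. It was 10 with a background offset of 1, 2 with median centring, 43 with A quantile and M scale between arrays, 0 with slide as a fixed term, 50 with slide as a random block, 2 with scan day, 0 on the earlier scan day alone, 467 with array weights, 46 with a trended robust prior, 11 without the 3 least correlated arrays (ERD 1, BLD 3 and ERD 4) and 114 with Cy5 detection as a covariate. ERD minus STD (49) ran from 5 to 170 with an array left out, and gave 0 with median centring, on the earlier day and without the 3 arrays, 32 with probes above background on all arrays, 1 with slide fixed, 101 with slide random, 11 with scan day, 177 with array weights and 93 with the detection covariate. BLD minus STD (2) ran from 1 to 10. It gave 1 with offset 1, processed signals, the deposited value table and median centring. It also gave 1 with A quantile and M scale between arrays, scan day and the earlier day. Without a filter and with all arrays above background it gave 5. It gave 0 with slide fixed, 7 with slide random, 40 with array weights and 9 with the robust prior. ERD minus BLD (0) ran from 0 to 1, and gave 1 with slide fixed and on the earlier day.

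Values that changed sign, none of them called, were *Alas2* at -0.52 from processed signals and the value table, *Fads2* at 0.041 and *Bdnf* at 0.022 with median centring, *Bdnf* at 0.0116 on the earlier day, *Pcp4* at 0.0799 from Cy5 alone, and *Pou3f1* at 0.16, *Elovl2* at 0.23 and *Elovl5* at -0.0526 with slide fixed. The cause of these moves was not tested. Signal over background limits the dimmer probes.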
